A study of Homo sapiens with 8 samples.

Results

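The aminoacyl-tRNA synthetases are the enzymes that load each tRNA with its amino acid, the step that sets the meaning of the genetic code. The genes described here were taken from a fixed list of 36 symbols, 20 for cytosolic enzymes and 16 for mitochondrial enzymes, whose symbols end in 2. All 36 were among the 22808 symbols of the count table, and all 36 passed the filter on low counts that left 12366 genes for testing. RD18 is a cell line of human fusion-negative rhabdomyosarcoma, a soft-tissue tumour of the skeletal muscle lineage. The treated cells had been transfected with miR-449a and miR-340-5p (4 libraries), and the vehicle cells had received lipofectamine, the transfection reagent, without RNA (4 libraries). Both groups were collected 60 h after transfection and come from this 1 cell line. The vehicle cells got no control RNA, so an effect of these microRNAs and an effect of transfected RNA as such cannot be told apart. Libraries held 2567737 to 5569342 counts. The muscle lineage gene MYOD1 averaged 108 ± 3.72 CPM in treated cells and 204 ± 21.7 CPM in vehicle cells (SD, n = 4 each), MYOG 0.646 ± 0.372 and 10.4 ± 1.89 CPM, and DES 67.7 ± 7.14 and 108 ± 10.6 CPM, with treated cells first, and the part of this shift in muscle genes in the results was not tested. The markers of leukocytes, endothelium and epithelium in the table averaged at most 1.49 CPM in either group. CPM is the count of a gene scaled to a common library size. No label says that the replicates came from separate cultures, so p-values measure the spread between these libraries, which may be technical.

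Animal cells keep a cytosolic set of synthetases for nuclear-encoded proteins and a nuclear-encoded mitochondrial set for the few proteins made inside mitochondria. GARS and KARS each serve both compartments from a single gene, EPRS joins the glutamate and proline enzymes in a single chain, and FARSA and FARSB encode the subunits of the phenylalanine enzyme. Several cytosolic enzymes sit together in the multisynthetase complex, held by the scaffold proteins AIMP1, AIMP2 and EEF1E1, and the others act outside it. Many cytosolic synthetase genes are known targets of the transcription factor ATF4, which is made when amino acids run short or other stresses block translation initiation, and WARS is also known as an interferon-induced gene.

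Cytosolic synthetase genes were mostly higher in treated cells, while most mitochondrial ones did not pass the test. Of the 20 cytosolic genes, 13 rose, 3 fell and 4 did not pass (edgeR quasi-likelihood test, adjusted p under 0.05 over all 12366 tested genes). Of the 16 mitochondrial genes, 3 rose, 2 fell and 11 did not pass. Calls were common in these data: 67.3% of all tested genes passed, 33.4% as higher and 34% as lower. In the cytosolic set 65% were called higher and 15% lower, and in the mitochondrial set 18.8% were called higher and 12.5% lower. The median log2 fold change was 0.31 in the cytosolic set and 0.00 in the mitochondrial set, beside 0.00 over all tested genes. Over the 36 synthetase genes, the groups did not overlap in 16 cytosolic and 4 mitochondrial genes, where 58.9% of all tested genes showed no overlap. These counts and medians are descriptions, and the difference between the sets was not tested. Counts are relative to the rest of each library, and in bulk RNA a change in the share of cells that express a gene and a change of RNA per cell cannot be told apart.

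The sets also differed in depth. Cytosolic members had 1448 to 10085 counts over the 8 libraries and standard errors of 0.06 to 0.11 log2 units, whereas mitochondrial members had 187 to 1797 counts and standard errors of 0.10 to 0.28. Judged by size alone, a log2 fold change of at least 0.5 in either direction was found in 10 of 20 cytosolic genes, 7 of 16 mitochondrial genes (43.8%) and 55.1% of all tested genes. By that measure the sets lie closer together than by the count of calls. A cut on size alone also counts noise, and the standard errors were larger in the mitochondrial set. FARS2 (0.53) and NARS2 (-0.57) reached that size and did not pass. By direction, 8 cytosolic genes lay at 0.5 or above and 2 at -0.5 or below, against 4 and 3 mitochondrial genes.

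**Figure D1:**
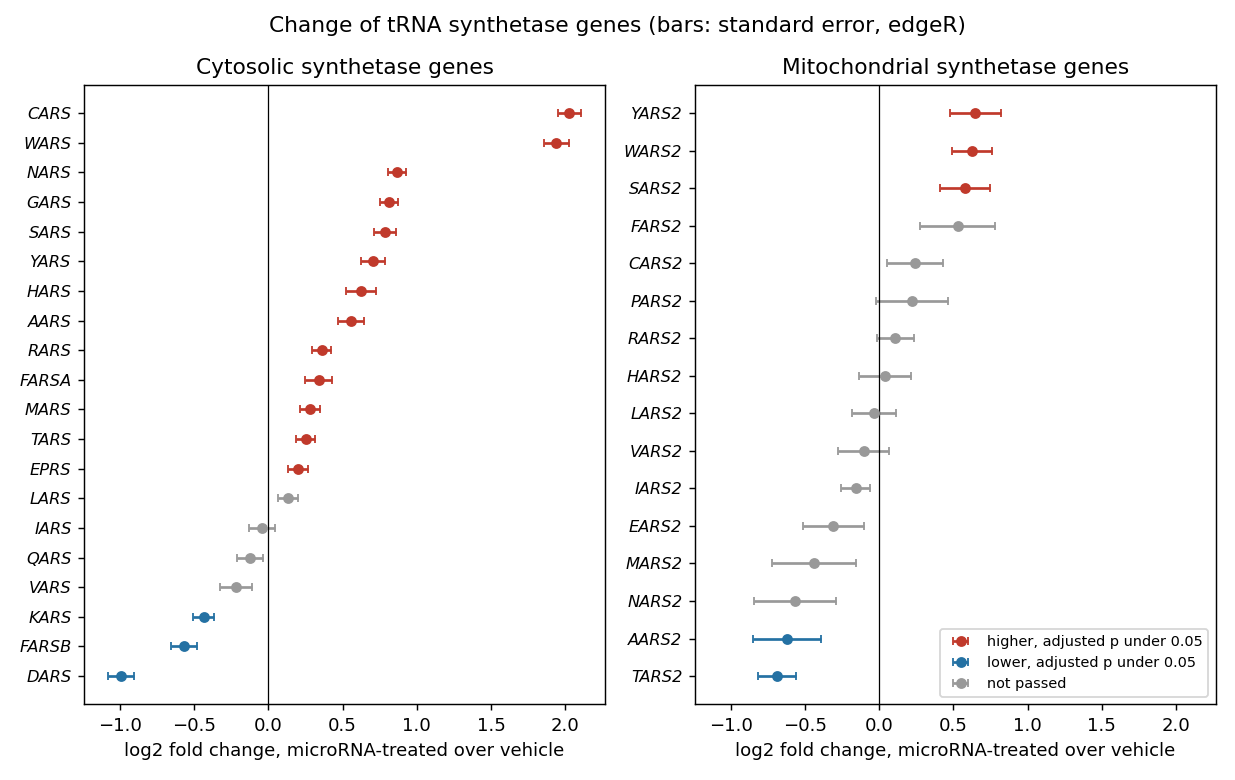
Log2 fold change of each synthetase gene, treated over vehicle (x axis), with the standard error as a bar, for 20 cytosolic genes (left) and 16 mitochondrial genes (right). Red and blue points passed as higher and lower. CARS (2.03) and WARS (1.94) stand apart from all others, and DARS (-0.99) is the lowest.

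CARS and WARS showed by far the highest rises of the 36 genes and were the only members that changed at least 2-fold with an adjusted p under 0.05. CARS, which charges tRNA with cysteine (chromosome 11, 3000922 to 3057613, GRCh38), had 218, 227, 257 and 222 CPM in the treated libraries and 60.7, 51.8, 59.7 and 54.5 CPM in the vehicle libraries. Every treated library stood far above every vehicle library, and the fitted rise was 4.08-fold (log2 fold change 2.03, SE 0.08, adjusted p = 1.53e-31). WARS, the tryptophan enzyme (chromosome 14, 100333788 to 100376805), had 171, 165, 163 and 152 CPM in treated and 44.8, 43.5, 41.3 and 41.2 CPM in vehicle libraries. Its groups stood as clearly apart, with a rise of 3.83-fold (log2 fold change 1.94, SE 0.08, adjusted p = 5.89e-29).

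WARS rose together with other interferon-induced genes. Of 9 such genes listed, 8 were tested and all 8 rose, by log2 fold changes of 1.68 to 3.46, where 33.4% of tested genes rose. IRF1, an interferon-induced transcription factor, averaged 65.5 ± 4.48 CPM in treated and 7.62 ± 2.10 CPM in vehicle cells (SD, n = 4 each). UBE2L6, the conjugating enzyme for the ubiquitin-like protein ISG15, averaged 129.7 ± 8.02 CPM in treated and 41.3 ± 6.01 CPM in vehicle cells. Their part in the WARS value was not tested. RefSeq (GRCh38.p14) gives WARS, as WARS1, a second start whose promoter holds the core of the interferon response element, GAAANNGAA. The window is shown because it belongs to the gene with the second-highest rise. It lies at chr14:100375384-100375412 on the minus strand, the capitals mark the match, and the match begins 55 bases before the start.
WARS: tttcagaaggGAAACTGAAagaaagaggg
This core, sought on both strands of the 300 bases from 250 before to 50 after each start, is in 8.11% of 35116 RefSeq promoters. By gene it is in 9.86% of 27305 genes, in 3 of the 16 cytosolic synthetase genes with a promoter entry (GARS, IARS and WARS) and in 1 of the 14 mitochondrial ones (EARS2). A match describes letters and is not evidence of binding.

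After CARS and WARS came a group of cytosolic genes with rises of 1.47-fold to 1.82-fold and no overlap between groups. NARS, the asparagine enzyme (chromosome 18, 57600656 to 57622213), had 372, 341, 389 and 365 CPM in treated and 199.6, 184, 215 and 205 CPM in vehicle libraries (log2 fold change 0.87, SE 0.06, adjusted p = 3.15e-19). GARS, the glycine enzyme of both compartments (chromosome 7, 30594681 to 30634033), had 393, 390.1, 378 and 396 CPM in treated and 225, 207, 227 and 228 CPM in vehicle libraries (log2 fold change 0.81, SE 0.06, adjusted p = 4.95e-19). The treated libraries of both genes were tightly grouped, with SDs of 19.8 and 7.64 CPM around means of 367 and 389 CPM. SARS, the serine enzyme, had 387, 340.5, 426 and 306 CPM in treated and 199.1, 206, 232 and 207 CPM in vehicle libraries, 1.72-fold higher with a wider spread among the treated libraries (SD 52.7 against 14.3 CPM). YARS, the tyrosine enzyme, had 151, 133, 154 and 161 CPM in treated and 93.3, 80.8, 97.5 and 94.2 CPM in vehicle libraries, 1.63-fold higher. HARS, the histidine enzyme, rose 1.54-fold and AARS, the alanine enzyme, 1.47-fold.

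**Figure D2:**
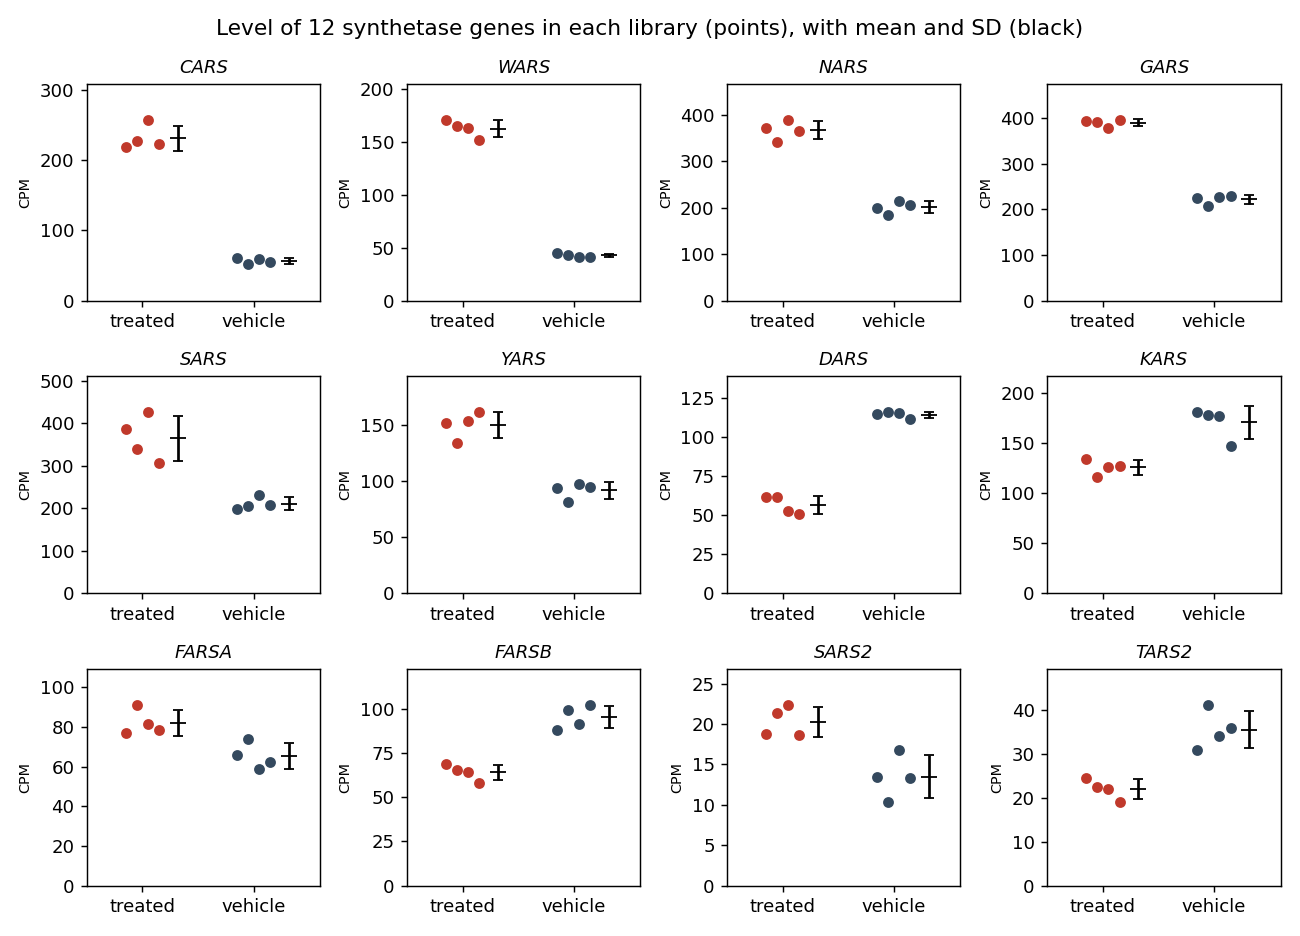
CPM of 12 synthetase genes in each library (points, y axis from 0), with treated libraries on the left, vehicle libraries on the right, and the mean and SD of 4 libraries in black. The groups do not overlap for any of these 12 genes: 8 are higher and 4 (DARS, KARS, FARSB and TARS2) are lower in treated cells.

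The remaining rises were smaller. RARS, the arginine enzyme, averaged 305 ± 36.1 CPM in treated and 237 ± 3.45 CPM in vehicle cells (SD, n = 4 each, 1.28-fold). FARSA, MARS for methionine, TARS for threonine and EPRS rose 1.26-fold, 1.22-fold, 1.19-fold and 1.15-fold, with adjusted p = 0.00101, 0.000232, 0.000343 and 0.00896. In each of these genes the lowest treated library still lay above the highest vehicle library. EPRS, the smallest of these rises, ran from 166 to 195 CPM in treated and from 153 to 160.1 CPM in vehicle libraries. In 13 of the 20 cytosolic genes (65%) every treated library lay above every vehicle library, and this held for 29.2% of all tested genes. MARS shares 355 exonic bases (GENCODE 29) on the opposite strand with DDIT3, a gene 15.5-fold higher in treated cells, and 519 with ARHGAP9. The strand setting of the counting is not given in the sources used here, and the part of such shared reads in the MARS value was not tested.

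The cytosolic genes were then read for the core of the amino acid response element, TGATGNAA, the sequence class bound by ATF4 with C/EBP partners. The search was chosen with the rises in view. It covered both strands of the RefSeq promoters (GRCh38.p14), where these genes carry symbols ending in 1, and 30 of the 36 genes had an entry. The cytosolic genes DARS, LARS, VARS and YARS and the mitochondrial genes AARS2 and VARS2 had none. The core was in 7 of the 16 cytosolic genes with an entry, in 1 of 14 mitochondrial genes (YARS2) and in 4.46% of all 27305 genes with a promoter, or 3.62% of promoters. The 7 windows are given on each gene's strand with the match in capitals. The search fixed every capital except the base at N, so the likeness of the matches is not a result.
CARS: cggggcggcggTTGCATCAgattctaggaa
NARS: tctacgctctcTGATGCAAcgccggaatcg
GARS: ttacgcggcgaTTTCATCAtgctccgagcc
AARS: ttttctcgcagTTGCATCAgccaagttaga
MARS: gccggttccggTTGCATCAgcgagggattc
TARS: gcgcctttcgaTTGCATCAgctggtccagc
IARS: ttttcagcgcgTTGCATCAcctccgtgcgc
The windows lie at chr11:3057407-3057436, chr18:57621804-57621833, chr7:30594834-30594863, chr16:70289675-70289704, chr12:57488053-57488082, chr5:33440956-33440985 and chr9:92293692-92293721, in that order. The match begins 2 bases before the annotated start in CARS, 4 in MARS, 13 in IARS, 33 in GARS and 187 in AARS, and 2 and 14 bases past it in TARS and NARS. Of the 7 genes, 6 rose and IARS did not pass, with a median log2 fold change of 0.56. Of the 9 cytosolic genes with an entry and no match, 6 rose, 2 fell and 1 missed the threshold, and the median was 0.34. The 4 cytosolic genes without an entry could not be placed in either group. Among them YARS rose, DARS fell and LARS and VARS missed the threshold (median -0.04). Of all tested genes, 33.4% were called higher and 34% lower. SARS, HARS and RARS were among the genes that rose without the core in this window, and no test of the core was made.

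Cytosolic genes that fell were DARS, FARSB and KARS. DARS, the aspartate enzyme (chromosome 2, 135906677 to 135986100), had 61.4, 61.4, 52.7 and 50.9 CPM in treated and 115, 116, 115 and 111 CPM in vehicle libraries. Every treated library was far below every vehicle library, a 1.99-fold fall (log2 fold change -0.99, SE 0.09, adjusted p = 1.24e-15). KARS, the lysine enzyme of both compartments (chromosome 16, 75627474 to 75648643), had 134, 117, 127 and 127 CPM in treated and 181, 178, 178 and 147 CPM in vehicle libraries (1.35-fold lower, adjusted p = 5.29e-07). DARS shares 305 exonic bases with DARS-AS1 on the opposite strand.

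The subunits of the phenylalanine enzyme were called in opposite directions. FARSA, the alpha subunit (chromosome 19, 12922479 to 12934037), had 76.9, 91.1, 81.3 and 78.5 CPM in treated and 65.7, 74.0, 58.8 and 62.0 CPM in vehicle libraries. FARSB, the beta subunit (chromosome 2, 222570536 to 222656337), had 68.5, 65.3, 64.4 and 58.3 CPM in treated and 88.3, 99.2, 91.6 and 102 CPM in vehicle libraries (1.48-fold lower, adjusted p = 6.89e-08). Within a library the FARSA value was 1.12, 1.39, 1.26 and 1.35 times the FARSB value in treated cells and 0.744, 0.747, 0.642 and 0.607 times in vehicle cells. The ratio was higher in every treated library than in every vehicle library. CPM is not scaled to gene length (2435 exonic bases in FARSA and 3369 in FARSB), so a ratio of 1 does not mark equal levels. The ratio was singled out after the values were seen and is given with no test.

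The 8 enzymes of the multisynthetase complex (EPRS, IARS, LARS, QARS, MARS, KARS, RARS and DARS) were described beside the cytosolic enzymes outside it. Of the 8, 3 rose, 2 fell and 3 did not pass, and their log2 fold changes ran from -0.99 to 0.36 around a median of 0.05. These shares, 37.5% higher and 25% lower, lie near the 33.4% and 34% of all tested genes. Of the 12 cytosolic genes outside the complex, 10 rose, FARSB fell and VARS missed the threshold, and the median was 0.66. Among the complex genes that did not pass, IARS for isoleucine averaged 95.2 ± 13.5 CPM in treated and 98.4 ± 8.64 CPM in vehicle cells, QARS for glutamine 78.4 ± 8.85 and 85.5 ± 5.04 CPM, and LARS for leucine 222 ± 13.6 and 203 ± 25.0 CPM, each with treated cells first (SD, n = 4 each). LARS was called higher under upper-quartile scaling (adjusted p = 0.0139), under library size alone (0.000574) and without treated replicate 2 (0.0469) or vehicle replicate 1 (0.00867). VARS, the valine enzyme, averaged 41.7 ± 2.68 CPM in treated and 48.0 ± 7.74 CPM in vehicle cells (adjusted p = 0.0770), and it passed as lower without vehicle replicate 1 (0.0430) or 2 (0.0169). The 3 scaffold genes moved both ways. EEF1E1 averaged 6.09 ± 1.79 CPM in treated and 16.7 ± 4.61 CPM in vehicle cells (2.64-fold lower), and AIMP2 63.6 ± 2.20 and 84.8 ± 5.07 CPM (1.33-fold lower). AIMP1 passed as higher at 1.16-fold (adjusted p = 0.0325) with overlapping groups, a call that DESeq2 did not make (adjusted p = 0.0670) and that was lost without treated replicate 1 (0.0625), 2 (0.0632) or 4 (0.0703) or vehicle replicate 2 (0.0596) or 3 (0.266). The difference between the enzymes in the complex and those outside it was not tested.

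Mitochondrial synthetase genes that rose were YARS2, WARS2 and SARS2. WARS2, the mitochondrial tryptophan enzyme (chromosome 1, 119031216 to 119140671), had 36.6, 30.5, 31.3 and 28.97 CPM in treated and 21.3, 21.2, 18.9 and 22.1 CPM in vehicle libraries (1.54-fold, log2 fold change 0.62, SE 0.13, adjusted p = 5e-05). YARS2, for tyrosine, had 21.7, 23.9, 17.9 and 18.0 CPM in treated and 12.1, 15.8, 9.88 and 15.1 CPM in vehicle libraries (1.57-fold, adjusted p = 0.000675). SARS2, for serine, had 18.8, 21.3, 22.4 and 18.7 CPM in treated and 13.4, 10.4, 16.8 and 13.3 CPM in vehicle libraries (1.49-fold, adjusted p = 0.00201). In these 3 genes the groups did not overlap. SARS2 shares 46.2% of its exonic bases with AC011455.2, a gene on the same strand that has no row in the count table, and 10.8% with MRPS12 on the opposite strand.

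TARS2 and AARS2 fell. TARS2, for threonine (chromosome 1, 150487364 to 150507609), had 24.5, 22.3, 22.0 and 19.0 CPM in treated and 31.0, 41.2, 34.1 and 35.9 CPM in vehicle libraries, without overlap (1.61-fold lower, adjusted p = 6.19e-06). AARS2, for alanine, had 7.28, 7.34, 3.79 and 10.3 CPM in treated and 11.3, 11.4, 9.66 and 12.3 CPM in vehicle libraries. Its groups overlapped, and the call (adjusted p = 0.0147) was lost with DESeq2 (0.0612), with library size alone (0.0608), without treated replicate 3 (0.0677) and without vehicle replicate 4 (0.0502). TARSL2, a second cytosolic threonine enzyme gene, averaged 15.6 ± 2.26 CPM in treated and 11.5 ± 2.35 CPM in vehicle cells. It passed (adjusted p = 0.0321) but not with DESeq2 (0.0895) or without treated replicate 1 (0.135) or 2 (0.0696) or vehicle replicate 1 (0.111) or 2 (0.0783).

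The other 11 mitochondrial genes did not pass, and their intervals show how much change remained possible. IARS2, the most deeply counted of the set, averaged 53.6 ± 4.51 CPM in treated and 59.6 ± 2.44 CPM in vehicle cells, with a log2 fold change of -0.16 and an interval from -0.35 to 0.03 (estimate ± 1.96 SE). RARS2, for arginine, had an interval from -0.14 to 0.35, LARS2 from -0.32 to 0.26, HARS2 from -0.30 to 0.38 and VARS2 from -0.44 to 0.24. VARS2 shares 22.0% of its exonic bases with GTF2H4, a gene on the same strand that has a row in the count table. CARS2, PARS2 and EARS2 had wider intervals, from -0.13 to 0.61, from -0.25 to 0.69 and from -0.71 to 0.10. The shallowest genes were NARS2 with 187 counts in all, MARS2 with 192 and FARS2 with 264. FARS2 averaged 9.79 ± 2.61 CPM in treated and 6.88 ± 2.50 CPM in vehicle cells (adjusted p = 0.0602), and NARS2 4.68 ± 0.373 and 6.84 ± 2.36 CPM (adjusted p = 0.0656). FARS2 was called higher under upper-quartile scaling (adjusted p = 0.0406), under library size alone (0.0163) and without treated replicate 1 (0.0171) or vehicle replicate 1 (0.0322) or 2 (0.0396). NARS2 passed as lower without vehicle replicate 1 (0.0247) or 3 (0.0423), and MARS2 without treated replicate 2 (0.0237). The intervals of FARS2, NARS2 and MARS2 ran from 0.033 to 1.025, from -1.11 to -0.024 and from -0.997 to 0.118. They are wide enough to hold changes as large as most of those called in the cytosolic set. Intervals here are not adjusted for the number of genes tested, unlike the calls. Those of FARS2 and NARS2 therefore keep a single sign although neither gene passed.

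Cytosolic and mitochondrial enzymes for the same amino acid were then set side by side within each library, for 16 pairs. EPRS stands in both the glutamate and the proline pair, and FARSA alone stands for the cytosolic phenylalanine enzyme. FARSB, in no pair, had a log2 fold change of -0.57, against 0.53 for FARS2. The ratio of cytosolic to mitochondrial CPM was higher in every treated library than in every vehicle library for 6 pairs, lower for 0, and overlapping for 10. No such share was computed for ratios of other genes, and 58.9% of single tested genes showed no overlap in either direction. For tryptophan the WARS/WARS2 ratio was 4.67, 5.41, 5.20 and 5.23 in treated and 2.10, 2.05, 2.19 and 1.86 in vehicle libraries, although both genes rose. For cysteine the CARS/CARS2 ratio was 18.1, 14.8, 11.0 and 17.3 in treated and 4.53, 4.17, 5.02 and 3.68 in vehicle libraries. For threonine and alanine the genes of a pair were called in opposite directions, TARS and AARS higher and TARS2 and AARS2 lower. The AARS/AARS2 ratio was 14.05, 12.9, 25.8 and 10.2 in treated and 5.93, 5.93, 6.47 and 6.02 in vehicle libraries. For serine and tyrosine both genes of the pair rose by like amounts (log2 fold changes of 0.78 and 0.58, and of 0.71 and 0.65), and their ratios overlapped between groups. For histidine the ratio was 3.55, 5.36, 4.07 and 4.88 in treated and 3.52, 2.72, 2.61 and 3.03 in vehicle libraries, a narrow separation. HARS and HARS2 lie head to head on chromosome 5 and share 437 exonic bases on opposite strands.

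**Figure D3:**
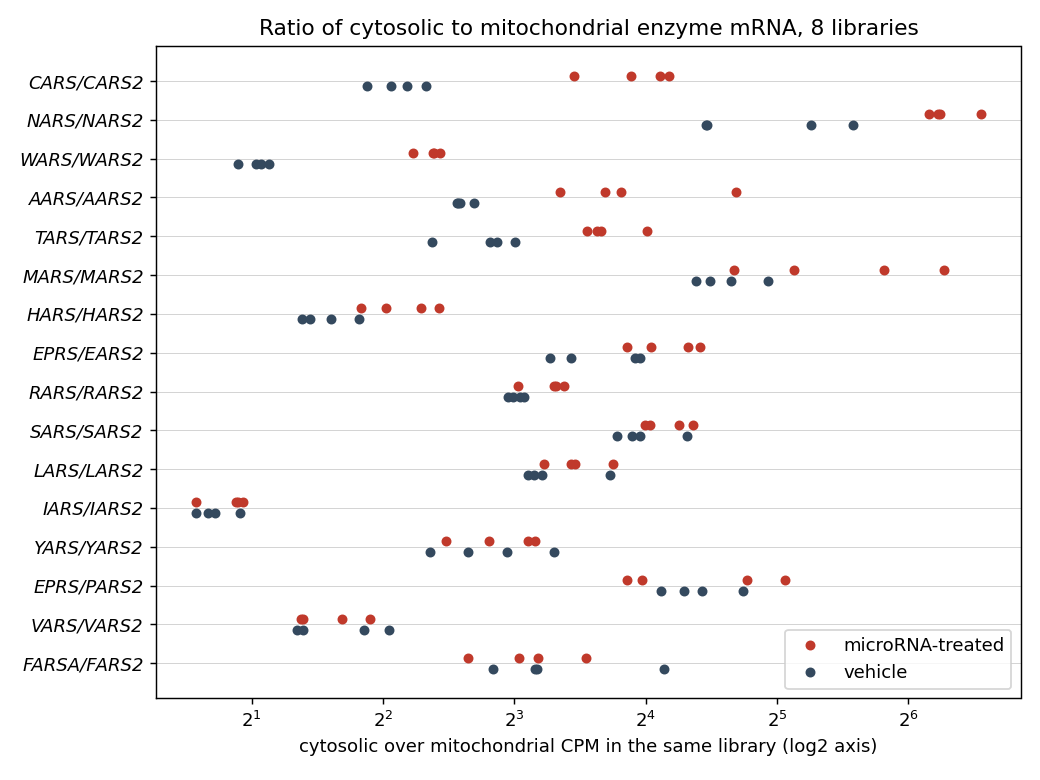
Ratio of cytosolic to mitochondrial CPM within each library (x axis, log2 scale) for 16 enzyme pairs, with 4 treated libraries in red above 4 vehicle libraries in dark blue. For CARS/CARS2, NARS/NARS2, WARS/WARS2, AARS/AARS2, TARS/TARS2 and HARS/HARS2 every red point lies to the right of every blue one. The other 10 pairs overlap.

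Summed over genes, the cytosolic set made up 3573 ± 117 CPM in treated and 2619 ± 68.6 CPM in vehicle cells (SD, n = 4 each), 1.36 times as much. The mitochondrial set summed to 290.4 ± 5.07 CPM in treated and 287 ± 7.99 CPM in vehicle cells, a ratio of 1.01. As a share of raw counts, with no scaling between libraries, the cytosolic set took 0.374%, 0.364%, 0.380% and 0.373% in treated and 0.248%, 0.231%, 0.253% and 0.262% in vehicle libraries. Every treated library was above every vehicle library in that share. The mitochondrial set took 0.0295% to 0.0312% in treated and 0.0265% to 0.0288% in vehicle libraries, again without overlap on this unscaled measure.

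Levels of different genes were compared per kilobase of annotated exon (union of GENCODE 29 exons). The median level was 26.5 CPM per kb in treated and 25.9 CPM per kb in vehicle cells for the cytosolic set, and 3.33 and 3.11 CPM per kb for the mitochondrial set. In treated cells SARS (95.1 ± 13.7), GARS (93.8 ± 1.84), NARS (89.7 ± 4.84) and RARS (89.2 ± 10.6 CPM per kb) were the highest and did not differ beyond their spread. In vehicle cells RARS was highest at 69.4 ± 1.01, followed by SARS (55.1 ± 3.74), GARS (53.4 ± 2.36) and NARS (49.1 ± 3.18 CPM per kb). CARS and WARS stood at 23.0 ± 1.77 and 25.6 ± 1.28 CPM per kb in treated cells, near the cytosolic median. In vehicle cells they stood at 5.65 ± 0.422 and 6.72 ± 0.273 CPM per kb, and of the 20 cytosolic genes only HARS, at 5.43 ± 0.583 CPM per kb, was lower than both. IARS2 and RARS2 were the highest mitochondrial genes, at 12.9 ± 1.08 and 12.5 ± 1.11 CPM per kb in treated and 14.3 ± 0.585 and 11.5 ± 0.333 CPM per kb in vehicle cells. The sources used here do not give the annotation behind the counts, and these lengths are therefore approximate. The union takes in exons of all annotated transcripts, from 2435 bases in FARSA to 10037 in CARS among cytosolic genes. The order of genes depends on this choice of length.

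**Figure D4:**
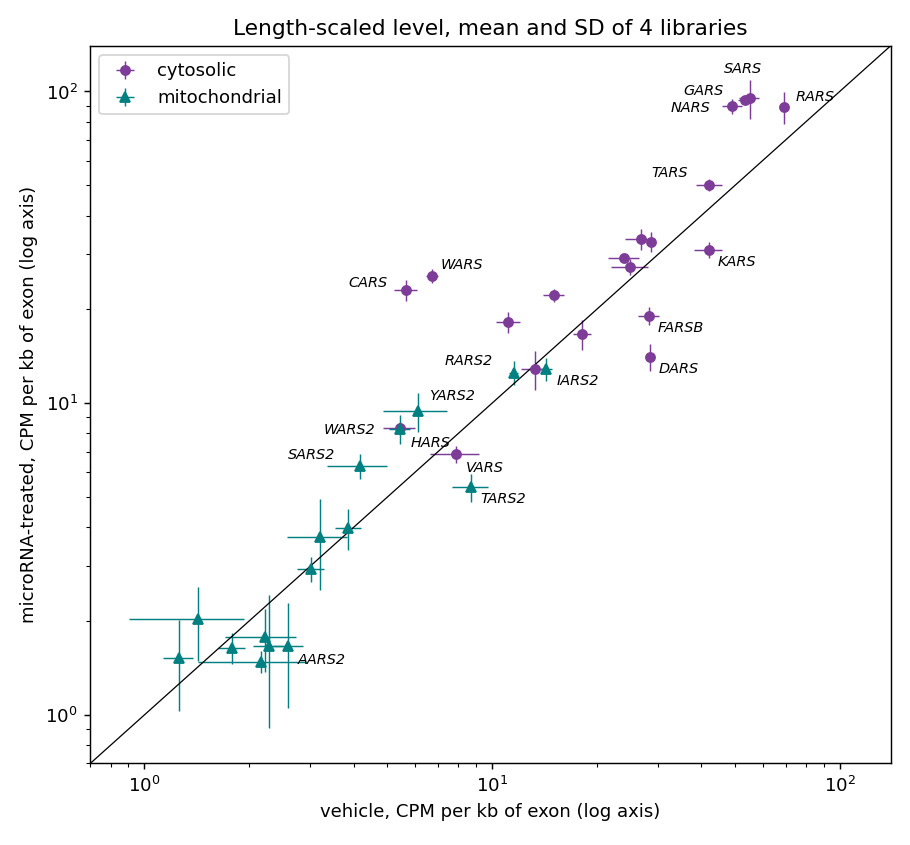
Mean CPM per kb of exon in treated cells (y axis) against vehicle cells (x axis), both on log axes, with the SD of 4 libraries as bars and the line of equal levels. Mitochondrial genes (triangles) lie mostly below 10 CPM per kb in both groups. CARS and WARS lie farthest above the line, and DARS, FARSB and KARS lie below it.

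The transfected microRNAs act mainly through bases 2 to 8, the seed, which pairs with complementary words in 3′ UTRs. Their mature sequences (RefSeq, GRCh38.p14) are given with the seed in capitals because the words sought follow from them.
miR-449a: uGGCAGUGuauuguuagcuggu
miR-340-5p: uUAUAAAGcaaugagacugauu
The words complementary to these seeds are CACTGCC, which belongs to miR-449a, and CTTTATA, which belongs to miR-340-5p. Of the 36 synthetase genes, 35 had an annotated 3′ UTR of at least 50 bases in GENCODE 29 (RARS2 had none), and 4 of them held a word (11.4%), against 33.4% of the 10522 tested genes with a 3′ UTR. Synthetase 3′ UTRs were also shorter, with a median of 639 bases against 1469.5 bases over all. FARSB and EARS2 held the miR-449a word, and LARS and MARS2 the miR-340-5p word. The 4 sites are shown on the transcript strand with the word in capitals.
FARSB: gatcccagattgtgcCACTGCCctccagcc
EARS2: ggagaagtgtgactcCACTGCCaagggtaa
LARS: cttttatgaggtgtaCTTTATActttgatg
MARS2: aaagggcaatgttttCTTTATAtttcttat
The words lie at chr2:222570576-222570582, chr16:23523515-23523521, chr5:146113777-146113783 and chr2:197708186-197708192 (GRCh38), in that order. Of these 4 genes, FARSB fell and the other 3 did not pass. Among the 3513 tested genes with either word, 1140 rose, 1306 fell and 1067 did not pass. The words differed: of 1880 tested genes with the miR-449a word, 531 rose and 769 fell. Of 2097 with the miR-340-5p word, 739 rose and 716 fell. EARS2, whose site is followed by A and so forms the longer 8-base match, averaged 10.2 ± 2.31 CPM in treated and 12.7 ± 2.95 CPM in vehicle cells (adjusted p = 0.184). Of the 31 genes with neither word, 16 rose, 4 fell (DARS, KARS, TARS2 and AARS2) and 11 did not pass. Among the 7009 tested genes with neither word, 2555 rose, 2241 fell and 2213 did not pass. Only these words in the longest annotated 3′ UTR were sought, and the part of the microRNAs in these values was not tested.

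Other genes that act with the synthetases were counted from lists. Of 21 amino acid response genes outside the synthetases, 20 were tested, 12 rose (60%) and 4 fell (20%), beside 33.4% and 34% of all tested genes, with a median log2 fold change of 0.85. ATF4 itself averaged 476 ± 34.3 CPM in treated and 306 ± 4.07 CPM in vehicle cells (1.56-fold), and ASNS, asparagine synthetase, 129 ± 6.98 and 51.1 ± 8.26 CPM (2.50-fold). DDIT3, a stress transcription factor gene, averaged 245 ± 18.8 CPM in treated and 15.7 ± 1.67 CPM in vehicle cells, SLC7A11, the cystine importer, 85.5 ± 8.47 and 5.34 ± 2.03 CPM, and SESN2, a regulator of mTORC1, 125 ± 11.4 and 14.8 ± 2.50 CPM. The 4 that fell were enzymes of serine, one-carbon and proline synthesis: PHGDH, SHMT2, ALDH18A1 and PYCR1, with log2 fold changes of -0.82, -0.52, -0.31 and -1.79. Other listed enzymes of serine and one-carbon synthesis did not fall: PSPH rose (1.35), and PSAT1 (0.07) and MTHFD2 (0.05) did not pass. The part of this programme in the synthetase values was not tested.

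Partners of mitochondrial charging moved both ways. All 4 tested genes passed, as did 67.3% of all tested genes. QRSL1, GATB and GATC encode the amidotransferase that makes glutaminyl-tRNA in mitochondria, where EARS2 first loads that tRNA with glutamate. GATC averaged 31.7 ± 2.96 CPM in treated and 72.2 ± 4.04 CPM in vehicle cells (2.30-fold lower), while QRSL1 rose 1.28-fold (adjusted p = 0.0105, and 0.0534 without vehicle replicate 3) and GATB by a log2 fold change of 0.43 (adjusted p = 0.0447). MTFMT, which formylates the methionine on mitochondrial initiator tRNA, rose 1.67-fold. Of 4 tested genes for editing and selenocysteine, only SEPSECS, which completes selenocysteine on its tRNA, passed, at 17.6 ± 0.376 CPM in treated and 8.81 ± 2.26 CPM in vehicle cells. DTD1, DTD2 and PSTK did not pass, but PSTK was called lower without vehicle replicate 2 (log2 fold change -0.67, adjusted p = 0.0322, against -0.41 with all libraries).

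Genes that act before and after the charging step were counted as well. Of 17 genes for tRNA end processing, CCA addition and export, 16 were tested, 3 rose (18.8%) and 6 fell (37.5%), near the 34% of all tested genes that fell, with a median log2 fold change of -0.20. XPOT, the nuclear export receptor for tRNA, averaged 84.9 ± 11.0 CPM in treated and 41.8 ± 4.96 CPM in vehicle cells (2.02-fold). HSD17B10, a subunit of mitochondrial RNase P, averaged 9.76 ± 2.08 and 53.8 ± 9.21 CPM (5.45-fold lower), and POP7, a subunit of nuclear RNase P, was 1.91-fold lower. Of 7 cytosolic elongation genes, 6 were tested, 5 fell (83.3%) and 0 rose, beside 34% and 33.4% of all tested genes. EEF1G did not pass the filter on low counts. EEF1B2, an exchange factor subunit, averaged 303 ± 12.9 CPM in treated and 627 ± 41.2 CPM in vehicle cells, EEF2, the translocation factor, 1174 ± 84.8 and 1613 ± 49.8 CPM, and EEF2K, the kinase that inhibits it, 5.64 ± 1.01 and 17.7 ± 2.07 CPM. Of 4 mitochondrial elongation genes, TUFM (1.76-fold) and GFM1 (1.32-fold) fell and TSFM and GFM2 did not pass. The difference in direction between synthetase genes and these elongation genes, which include the kinase gene EEF2K, was described by counts and not tested.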

How the data were processed

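Polyadenylated RNA of 8 libraries was made with a stranded kit and read on a HiSeq4000, per the labels' protocols. The authors deposited raw whole-number counts per gene symbol, 1 column per library, matched to samples by the library code in the labels. Per the submitters' processing notes the build was GRCh38, and the tools listed, without their roles, were HTSeq 0.5.3p3, DESeq2, TopHat2 2.0.13 and SAMtools 0.1.19.24. The sources used here give neither annotation nor strand setting.

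Counts were filtered with filterByExpr (minimum count 10, minimum total 15), scaled by TMM and tested across all 12366 genes with edgeR 4.0.16 in R 4.3.3 (robust glmQLFit, then glmQLFTest on treatment, which was the sole covariate). Tests were two-sided, and calls required a Benjamini-Hochberg adjusted p under 0.05. Each standard error is the absolute log2 fold change divided by the root of its F statistic. The biological coefficient of variation was 0.0745. Replicate pairs differed by 2.21 to 5.89 in chi-square per gene, where sampling noise gives about 1, so each library counted separately. The steps were tested on simulated data.

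Members, lists and searches were chosen with earlier results of these data known. All 36 members are named. Of each pathway list, up to 3 genes with the smallest adjusted p and a mean of at least 1 CPM are named, ATF4, DDIT3 and ASNS always. Some genes that this rule names are not reported here. GATB, DTD2, GFM2, PSPH, PSAT1, MTHFD2 and the 4 amino acid response genes that fell are named besides, after their values were seen. Of the members, 11 have pseudogenes named after them in GENCODE 29, which can share reads. Alternatives were DESeq2 1.42.0, other scalings, no filter, a replicate block and leaving out each library.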

Additional observations from a re-analysis of the deposited data

Results flagged for a closer look

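In 2 of 72 groups of 4 libraries (36 genes in treated and in vehicle cells), a single library lay far from the other 3 (by Dixon's ratio of gap to range). Chance flags about 1 in 20 such groups. GARS had 207 CPM in vehicle replicate 2, where the other vehicle libraries had 225 to 228 CPM. KARS had 147 CPM in vehicle replicate 4, where the others had 178 to 181 CPM. Both calls held without those libraries.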

How the results depend on the processing

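Cytosolic counts of 13 higher and 3 lower and the mitochondrial count of 3 higher moved by at most 1 gene under every alternative, and 20 or 21 of the 21 called genes were called the same way in each, AARS2 being the only call lost. The mitochondrial count of 2 lower became 1 with library size alone and with DESeq2, and 1 to 3 when a library was left out. The cytosolic median of 0.31 became 0.45 with library size alone, which shifts all genes by 0.14, and 0.36 with upper-quartile scaling, and ran from 0.27 to 0.34 when a library was left out. The mitochondrial median became 0.14 with library size alone. Genes that did not pass changed sign: with library size alone IARS 0.10, QARS 0.014, LARS2 0.11, VARS2 0.034 and DTD1 0.027, and with upper-quartile scaling IARS 0.011 and LARS2 0.018. Without single libraries HARS2 ran from -0.081 to 0.13, IARS from -0.10 to 0.035 and LARS2 from -0.088 to 0.014. Over all genes the split was 4125 higher and 4199 lower as reported, and 4890 and 3453 with library size alone. The replicate block gave 4102 higher and 4171 lower and the same member counts. Libraries of the same replicate number were compared by their deviations from the group mean of each gene. These deviations were only weakly alike (correlations of 0.01 to 0.06), but all 4 treated libraries correlated best with their own number. Without taking out the group means, libraries of different groups correlated by up to 0.859. The source of this weak link was not tested. Mitochondrial members had 187 to 1797 counts in all, which limits the size of change that could be called.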
